A study of Homo sapiens with 6 samples.

Results

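The AP-1 family genes FOS, FOSB, FOSL1, FOSL2, JUN, JUNB, JUND and ATF3 were followed in T-24 cells, an adherent line grown from a human bladder carcinoma. They were taken by gene symbol, and all 8 were found among the 38557 symbols of the deposited tables. All 8 also passed the filter on low counts, which left 13597 genes for testing. The 3 CCT068127 libraries came from cells given CCT068127 at 1 µM for 48 h, and the 3 DMSO libraries from cells given the vehicle for 48 h. CCT068127 is a known small-molecule inhibitor of CDK2, a cell cycle kinase, and of CDK9, a kinase of transcript elongation. The genotype label reads WT for the DMSO samples and names the treatment for the treated ones, and no allele or transgene is named for either group. Per the series' design text the cells were trypsinised before RNA extraction, and each arm held independent biological replicates.

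AP-1 is a dimeric transcription factor whose subunits carry a basic region that contacts DNA and a leucine zipper that joins the partners. JUN proteins pair with themselves or with FOS proteins, whereas FOS proteins need a JUN partner, and ATF3 joins JUN proteins or itself. Several of the genes are immediate early genes, transcribed within minutes of growth factor, phorbol ester or stress signals and giving short-lived messages. In epithelial cancer cells AP-1 is known for driving proteases, growth factors and adhesion genes of motile cells.

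The start regions of 7 of the 8 genes were read from the RefSeq promoter table for GRCh38.p14, and FOSL1 is the other member. They are shown because transcription of these genes is classically described through elements just before the start. Each line gives the last 130 bases before the RefSeq start, 5′ to 3′ on the gene's strand. JUND is given for 250 bases so that both of its cAMP response element sequences are seen. The GENCODE annotation used further below sets some starts elsewhere. By its spans the stretches of JUN and FOSL2 lie within the gene, and those of FOS and ATF3 partly do. Positions called upstream are relative to the RefSeq start. Capitals mark 3 kinds of match, on either strand: TGACGTCA or its first 6 letters TGACGT (the cAMP response element and its short form), TGACATCA (the element of the JUN promoter) and TATAAA (the TATA box).
FOS (chr14:75278698-75278827, plus strand): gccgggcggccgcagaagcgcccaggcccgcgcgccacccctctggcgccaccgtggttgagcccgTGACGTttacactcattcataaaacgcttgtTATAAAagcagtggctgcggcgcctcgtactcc
FOSB (chr19:45467866-45467995, plus strand): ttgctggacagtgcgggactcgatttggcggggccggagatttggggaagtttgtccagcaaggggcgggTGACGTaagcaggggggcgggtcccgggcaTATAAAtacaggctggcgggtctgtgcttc
FOSL2 (chr2:28392728-28392857, plus strand): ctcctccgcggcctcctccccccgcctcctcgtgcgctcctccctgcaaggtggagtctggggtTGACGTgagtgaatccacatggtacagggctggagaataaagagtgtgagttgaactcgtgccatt
JUN (chr1:58784048-58784177, minus strand): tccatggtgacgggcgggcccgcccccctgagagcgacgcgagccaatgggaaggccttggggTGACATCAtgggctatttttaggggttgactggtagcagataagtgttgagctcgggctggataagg
JUNB (chr19:12791356-12791485, plus strand): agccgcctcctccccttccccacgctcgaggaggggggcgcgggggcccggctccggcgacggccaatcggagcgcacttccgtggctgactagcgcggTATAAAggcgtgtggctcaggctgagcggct
JUND (chr19:18281623-18281872, minus strand): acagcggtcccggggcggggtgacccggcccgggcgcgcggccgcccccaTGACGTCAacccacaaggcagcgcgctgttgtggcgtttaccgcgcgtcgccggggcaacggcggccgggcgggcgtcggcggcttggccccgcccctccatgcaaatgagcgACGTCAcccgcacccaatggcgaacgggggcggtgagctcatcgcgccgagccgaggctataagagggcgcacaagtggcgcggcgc
ATF3 (chr1:212565277-212565406, plus strand): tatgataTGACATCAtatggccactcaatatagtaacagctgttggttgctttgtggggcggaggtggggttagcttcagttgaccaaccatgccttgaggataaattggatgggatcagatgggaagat

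In these windows TATAAA stood 33 to 28 bases before the start of FOS, 30 to 25 before that of FOSB and 31 to 26 before that of JUNB. Over the whole 250 bases TATAAA was not among the letters of JUN, JUND, FOSL2 or the ATF3 start shown. It was found once at another RefSeq start of ATF3, from 230 to 225 bases upstream. TGACGT lay at 64 to 59 bases upstream in FOS, 60 to 55 in FOSB and 66 to 61 in FOSL2. JUND held the full TGACGTCA from 200 to 193 bases upstream, within which the short form matches on both strands, and a further short form on the reverse strand from 87 to 82. TGACATCA stood at 67 to 60 bases in JUN and at 123 to 116 in ATF3. Over 35116 windows of 250 bases in that table, searched on both strands, 10.7% held TATAAA, 7.1% TGACGT, 1.65% TGACGTCA and 2.37% TGACATCA. Neither TGACTCA, the phorbol ester response element bound by AP-1 itself (4.2% of windows), nor the CArG box of serum response factor (1.16%) was found in the windows of the 7 genes. Bases further than 250 upstream were not searched, so this does not show that a gene, FOS included, lacks either element. CCAAT (32.0% of windows) was found in those of JUN, JUNB, JUND and ATF3. These matches describe the letters and were not tied to binding in these cells.

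Library totals were from 1966742 to 5557546 counts in CCT068127 and were 371044040, 411097626 and 5955296 in DMSO replicates 1 to 3. A count of 3 equals 0.54 to 1.53 CPM in the CCT068127 libraries and 0.0073 to 0.504 CPM in the DMSO libraries. The smallest count of a member was 20, for FOSB in DMSO replicate 3, with an exact 95% Poisson interval of 12.2 to 30.9, which like all such limits covers counting error only. Depth moved with the group except for DMSO replicate 3, which was as shallow as the treated libraries. Keratin RNA marked the cells as epithelial in both groups, with summed CPM of 6 epithelial markers of 5441 to 7169 in CCT068127 and 2647 to 3494 in DMSO. EPCAM (3.15 CPM in CCT068127, 3.54 CPM in DMSO) and CDH1 (0.0789 CPM in CCT068127, 0.263 CPM in DMSO) were low. The 8 urothelial markers together reached 27.4 to 34.9 CPM in CCT068127 and 106 to 135 CPM in DMSO. Most of this was GATA3, which was lower in treated cells at 26.6 ± 4.08 CPM in CCT068127 and 123 ± 15.9 CPM in DMSO (SD, n = 3; edgeR, adjusted p = 5.67e-07). UPK1B was at 1.94 ± 0.44 CPM in CCT068127 and 0.17 ± 0.11 CPM in DMSO and was not tested, and KRT5, KRT20 and UPK3A had 0 counts in CCT068127 and no more than 0.107 CPM on average in DMSO. The 4 leukocyte markers together reached 1.63 to 5.21 CPM in CCT068127 and 3.45 to 4.63 CPM in DMSO, the 3 endothelial markers 5.71 to 14.4 CPM in CCT068127 and 8.96 to 11.0 CPM in DMSO. The 4 fibroblast markers reached 1.42 to 2.24 CPM in CCT068127 and 1.64 to 2.9 CPM in DMSO, with DCN and LUM at 0 in every library. The 13 mitochondrially encoded genes took 2.01%, 4.07% and 2.42% of counts in CCT068127 replicates 1 to 3, and 2.27% to 2.41% in DMSO, and the part of this in the results was not tested. In bulk RNA, fewer cells expressing a gene and less RNA per cell cannot be told apart.

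The comparison asked which AP-1 transcripts differed between treated and vehicle cells. Of the 8 genes, 6 rose (FOS, FOSB, FOSL1, JUN, JUNB and ATF3), JUND fell, and FOSL2 did not pass. Changes were called at an adjusted p under 0.05 in edgeR's quasi-likelihood test, adjusted over all genes by the Benjamini-Hochberg method. By that rule 64.7% of all genes were called, 31.9% as higher and 32.8% as lower, so a call by itself sets the family little apart from other genes. Changes of at least 2-fold were called in 28.4% of all genes, and those of the 6 members that rose were all above that. The median log2 fold change of the 8 was 1.83, against -0.05 over all genes tested. CPM did not overlap between the groups for 7 of the 8, which held for 69.4% of all genes.

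**Figure D1:**
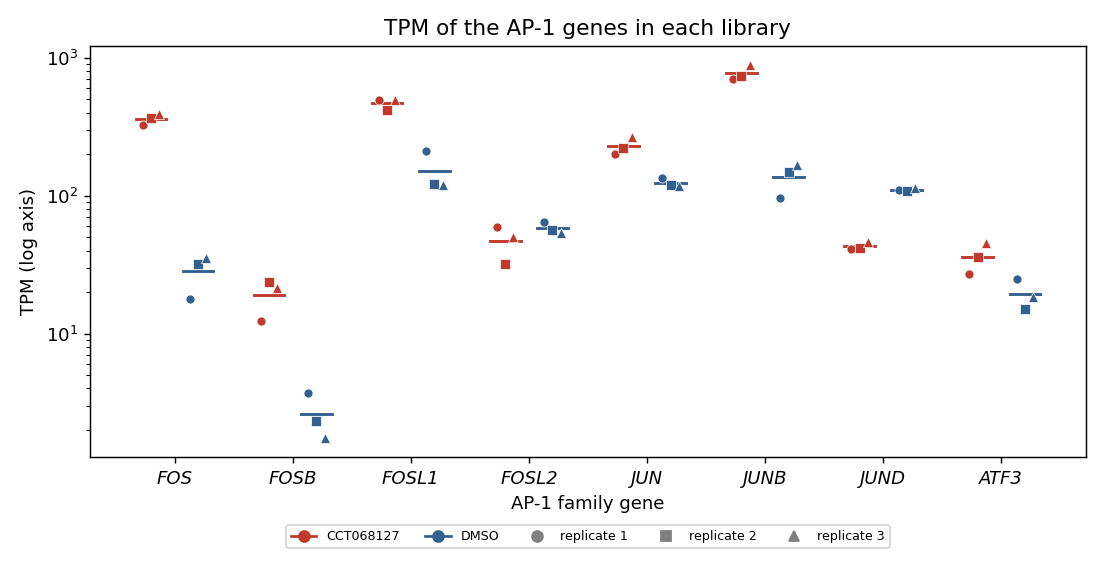
TPM (log axis) of each AP-1 gene in each library, with the 3 CCT068127 libraries left of the 3 DMSO libraries, symbols for replicate numbers and bars for group means. The groups are separate for every gene but FOSL2, and JUND is lower under CCT068127.

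FOS, the founding FOS protein and an immediate early gene, had 325.29, 364.14 and 388.82 TPM in CCT068127 replicates 1 to 3, against 17.87, 31.76 and 35.42 TPM in DMSO replicates 1 to 3. The lowest treated library stood far above the highest DMSO library. Its log2 fold change was 4.19 ± 0.24 (SE; edgeR, adjusted p = 6.13e-07; higher in 3 of 3 treated libraries), or 18.2-fold, and 357 of the 13597 genes had a higher one. The 3 treated libraries were close to one another, with a coefficient of variation of 7.13% in CPM, against 32.6% in DMSO, where replicate 1 was the low library.

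FOSB, a close relative of FOS induced by the same signals, had 12.26, 23.62 and 21.28 TPM in CCT068127 replicates 1 to 3, against 3.71, 2.32 and 1.74 TPM in DMSO replicates 1 to 3. It was the least abundant member in both groups. The groups did not overlap, and the log2 fold change was 3.16 ± 0.30 (edgeR, adjusted p = 1.53e-05). It rested on 149, 100 and 218 counts in CCT068127 and on 2698, 1879 and 20 counts in DMSO.

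FOSL1 encodes FRA1, the FOS protein most tied to invasive epithelial cancer cells. It had 496.35, 418.65 and 492.12 TPM in CCT068127 replicates 1 to 3, against 211.72, 122.31 and 120.1 TPM in DMSO replicates 1 to 3. DMSO replicate 1 was 1.76-fold above DMSO replicate 3 but stayed below every treated library. The log2 fold change was 2.09 ± 0.21 (edgeR, adjusted p = 2.39e-05), or 4.26-fold.

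FOSL2 encodes FRA2, the other FOS protein without the strong activation domain of FOS. It had 59.58, 31.74 and 49.93 TPM in CCT068127 replicates 1 to 3, against 64.52, 56.43 and 53.47 TPM in DMSO replicates 1 to 3. The ranges overlapped, since CCT068127 replicate 1 exceeded DMSO replicates 2 and 3. Its log2 fold change was -0.25 ± 0.13 (edgeR, adjusted p = 0.12), which does not show that its level was equal. Without CCT068127 replicate 1 it passed as lower (-0.42, adjusted p = 0.0112), and likewise when libraries were scaled by their totals (-0.56, adjusted p = 0.00293) or genes of low count were kept (-0.49, adjusted p = 0.00308).

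JUN, the founding JUN protein and an activating partner for FOS proteins, had 201.25, 223.1 and 268.03 TPM in CCT068127 replicates 1 to 3, against 133.68, 118.86 and 117.19 TPM in DMSO replicates 1 to 3. The groups were separate and DMSO was narrow. The log2 fold change from counts was 1.39 ± 0.12 (edgeR, adjusted p = 2.47e-06), whereas on log2(TPM + 1) values it was 0.89 (limma, adjusted p = 0.000434). The median over all genes differed too, at -0.05 with TMM scaling of counts, -0.36 with library totals and -0.46 on filtered log2(TPM + 1) values.

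JUNB, a JUN protein with a weaker activation domain that can hold JUN activity down, had 698.56, 740.48 and 893.03 TPM in CCT068127 replicates 1 to 3, against 97.05, 148.57 and 165.83 TPM in DMSO replicates 1 to 3. It was the most abundant member in every treated library. The log2 fold change was 3.0 ± 0.19 (edgeR, adjusted p = 7.37e-07), or 7.99-fold.

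JUND, the JUN protein kept at a steady level in many resting cells, had 40.75, 41.81 and 45.95 TPM in CCT068127 replicates 1 to 3, against 110.03, 108.83 and 113.26 TPM in DMSO replicates 1 to 3. Both groups were tight, with coefficients of variation in CPM of 5.41% in CCT068127 and 1.27% in DMSO. It fell by 0.88 on the log2 scale (SE 0.10; edgeR, adjusted p = 1.99e-05; lower in 3 of 3 treated libraries), and 2204 of the 13597 genes had a lower value.

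ATF3, a stress-induced member of the ATF group without an activation domain of its own, had 26.85, 36.11 and 45.48 TPM in CCT068127 replicates 1 to 3, against 24.98, 15.05 and 18.45 TPM in DMSO replicates 1 to 3. CCT068127 replicate 1 lay just above DMSO replicate 1, so the TPM ranges met closely without overlapping. In CPM the gap was wider, with 41.4, 53.1 and 67.0 in CCT068127 against 22.8, 14.1 and 16.7 in DMSO. The log2 fold change was 1.57 ± 0.22 (edgeR, adjusted p = 0.000168), and 0.86 on log2(TPM + 1) values (limma, adjusted p = 0.0121).

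The libraries of a group did not vary in step. DMSO replicate 1 was the lowest DMSO library for FOS and JUNB and the highest for FOSB, FOSL1, FOSL2, JUN and ATF3 in TPM, with FOS at 17.87 TPM there and FOSL1 at 211.72. CCT068127 replicate 3 was the highest treated library for FOS, JUN, JUNB, JUND and ATF3. In no member but FOSL2 did these differences reach across the groups. With DMSO replicate 3, the library of matching depth, as the sole control, the log2 fold changes were 3.81 for FOS, 3.88 for FOSB, 2.41 for FOSL1, 1.45 for JUN, 2.70 for JUNB, 1.65 for ATF3, -0.93 for JUND and -0.23 for FOSL2. The same 7 genes were called there (edgeR, adjusted p from 1.68e-08 to 0.00161), under the assumption that the lone DMSO library varies like the treated ones.

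TPM, which is per length, allows the genes to be ranked within a group. In CCT068127 the mean levels ran JUNB (777 ± 102 TPM; SD, n = 3), FOSL1 (469 ± 43.7), FOS (359 ± 32.0), JUN (231 ± 34.1), FOSL2 (47.1 ± 14.1), JUND (42.8 ± 2.75), ATF3 (36.2 ± 9.32) and FOSB (19.1 ± 6.00). The ranges of FOSL2 and JUND overlapped, as did those of JUND and ATF3, and all other neighbours were separate. In DMSO the order was FOSL1 (151 ± 52.3 TPM; SD, n = 3), JUNB (137 ± 35.8), JUN (123 ± 9.08), JUND (111 ± 2.29), FOSL2 (58.1 ± 5.72), FOS (28.4 ± 9.26), ATF3 (19.5 ± 5.05) and FOSB (2.59 ± 1.01). The levels of FOSL1, JUNB and JUN there overlapped with their neighbours, and so did those of FOS and ATF3.

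Within-library shares do not depend on scaling between libraries. The 8 genes together had 1861, 1880 and 2205 TPM in CCT068127 replicates 1 to 3, against 664, 604 and 626 TPM in DMSO replicates 1 to 3. JUND made up 2.19%, 2.22% and 2.08% of that sum in CCT068127, against 16.58%, 18.01% and 18.11% in DMSO. FOS made up 17.5%, 19.4% and 17.6% in CCT068127, against 2.69%, 5.26% and 5.66% in DMSO. The share of FOSL1 was 26.7%, 22.3% and 22.3% in CCT068127, within the 19.2% to 31.9% seen in DMSO, so its level kept pace with the family's sum. FOSL2 made up 1.69% to 3.2% in CCT068127, against 8.55% to 9.72% in DMSO.

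**Figure D2:**
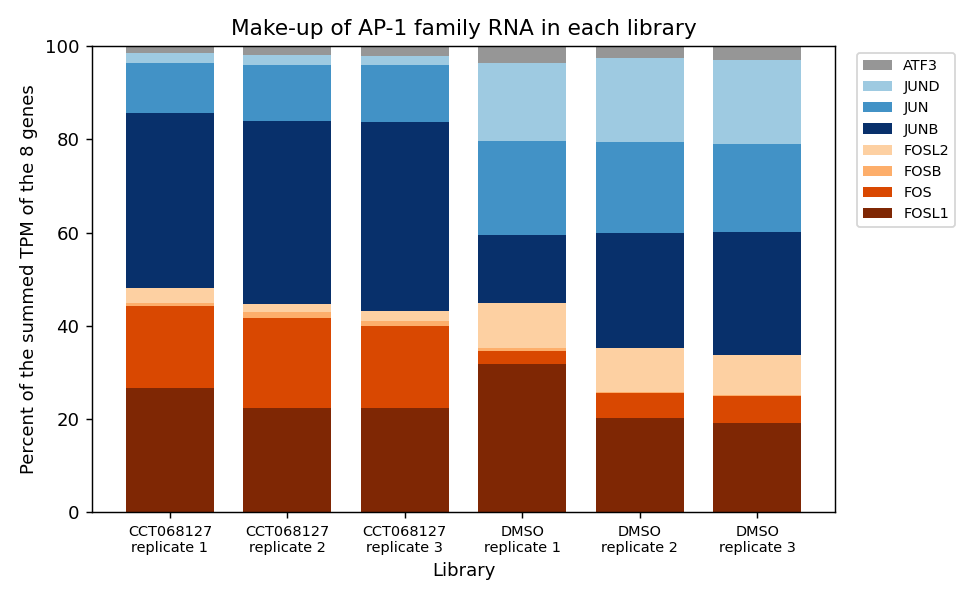
Stacked bars of each gene's percent of the summed TPM of the 8 AP-1 genes in each library, CCT068127 left of DMSO, with FOS-class genes in orange, JUN-class genes in blue and ATF3 in grey. JUND takes 2.08% to 2.22% in CCT068127 and 16.6% to 18.1% in DMSO, while FOS and JUNB take more in every treated library.

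Among the 3 JUN genes the make-up was nearly fixed from one treated library to the next. JUNB held 74.3%, 73.7% and 74.0% of JUN-class TPM in CCT068127, against 28.5%, 39.5% and 41.9% in DMSO. JUN held 21.4% to 22.2% in CCT068127, against 29.6% to 39.2% in DMSO, although its own level was higher in treated cells. The log2 ratio of JUNB to JUND TPM was 4.10, 4.15 and 4.28 in CCT068127, against -0.18, 0.45 and 0.55 in DMSO. The difference of 3.90 had an exact two-sided permutation p of 0.1, the smallest that 3 against 3 libraries allows. Among the 4 FOS genes, FOS held 36.4%, 43.5% and 40.8% of FOS-class TPM in CCT068127, against 6.0%, 14.9% and 16.8% in DMSO. FOSL1 remained the larger part, with 49.95% to 55.55% in CCT068127, against 57.0% to 71.1% in DMSO. All 4 FOS genes together made up 48.0%, 44.6% and 43.2% of the family in CCT068127, against 44.9%, 35.2% and 33.7% in DMSO, and these ranges overlapped.

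The genes lie apart from each other in GRCh38 (GENCODE release 29). FOS spans 75278774 to 75282230 on chromosome 14, FOSL1 65892049 to 65900573 on chromosome 11 and FOSL2 28392448 to 28417312 on chromosome 2. JUN (58780788 to 58784327) and ATF3 (212565334 to 212620777) are on chromosome 1, and JUNB (12791496 to 12793315), JUND (18279760 to 18281622) and FOSB (45467995 to 45475179) on chromosome 19. JUN and JUNB have 1 annotated transcript each, JUND 2, FOSL2 4 with lengths from 393 to 6708 bases, and ATF3 11 with lengths from 482 to 2103 bases. No source used here states whether the libraries kept strand. Reads from bases that a gene shares with an opposite-strand neighbour therefore cannot be told apart by strand. JUNB shares 259 exonic bases with HOOK2 on the other strand, a gene at 11.3 ± 2.31 CPM in CCT068127 and 24.0 ± 0.97 CPM in DMSO (SD, n = 3), far below JUNB. FOSB lies within a span annotated to ERCC1 on the other strand, with 0 shared exonic bases. FLJ31356, an antisense gene that overlaps the span of FOSL2 by 2225 bases with 0 shared exonic bases, had 120, 40 and 105 counts in CCT068127 replicates 1 to 3, against 201, 194 and 0 in DMSO replicates 1 to 3. The counts assigned to it came to 24.1 ± 1.06 CPM in CCT068127 and 0.31 ± 0.27 CPM in DMSO (SD, n = 3; edgeR, adjusted p = 9.75e-08). It passed the low-count filter through the treated libraries alone, and without strand these reads cannot be placed on either gene's strand.

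Dividing each deposited count by its TPM gives the effective length that the quantification assigned to a gene, here relative to the median gene of the library over 9129 genes with at least 20 counts everywhere. For FOS, FOSB, FOSL1, JUN, JUNB and JUND the mean in CCT068127 was within 0.99 to 1.01 times that in DMSO. FOSL2 had 1.17, 1.55 and 1.22 in CCT068127 replicates 1 to 3, against 1.65, 1.71 and 1.83 in DMSO replicates 1 to 3. Its ratio of group means was 0.759, lower than that of all but 1.64% of the genes. ATF3 went the other way, with 0.732, 0.722 and 0.722 in CCT068127, against 0.62, 0.623 and 0.617 in DMSO. Its ratio was 1.17, above that of 97.2% of the genes. Such a length depends on which transcripts of a gene the reads are assigned to. The rise of ATF3 was smaller per length, with a log2 ratio of mean TPM of 0.89 against 1.57 from counts. Members with a length ratio of 1.01 were lower from TPM too: FOS 3.66 against 4.19, JUN 0.91 against 1.39, JUNB 2.5 against 3.0, JUND -1.37 against -0.88. How much of the ATF3 difference goes with length was not tested. For FOSL2 the library with the lowest TPM, CCT068127 replicate 2, was the treated library with the longest effective length. It was also the lowest in CPM, at 99.97 against 147.1 and 123.8 in CCT068127 replicates 1 and 3.

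**Figure D3:**
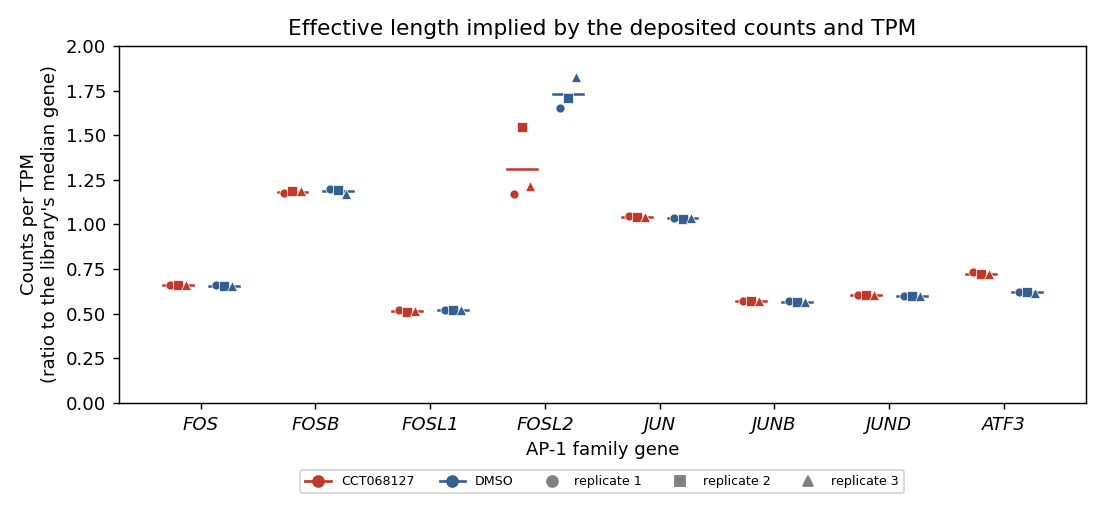
Deposited counts per TPM of each AP-1 gene, as a ratio to the median gene of the same library, for CCT068127 (left of each pair) and DMSO libraries, with bars for group means. FOSL2 is lower in CCT068127, ATF3 is higher, and the other genes coincide between groups.

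Proteins that can pair with the family were split. Of 13 other bZIP partner genes, 8 passed the filter, and 4 rose and 3 fell (median log2 fold change 0.26, against -0.05 over all genes). Over all genes tested 31.9% were called higher and 32.8% lower. The small MAF genes MAFF and MAFG, whose products lack an activation domain, rose by 1.68 and 1.50. MAFA, a large MAF gene, had 11.1 ± 3.97 CPM in CCT068127 and 0.06 ± 0.05 CPM in DMSO (SD, n = 3; edgeR, adjusted p = 1.56e-07), with 0 counts in DMSO replicate 3. MAFA passed the low-count filter through the treated libraries alone, so its call among the 4 that rose is not independent of the filter. MAFK also passed at 0.48, but in only 12 of 18 alternatives, and not with library totals (0.17, adjusted p = 0.274), without a low-count filter, on TPM values or with DMSO replicate 3 as the sole control. JDP2, a repressor that pairs with JUN proteins, fell to 14.9 ± 1.91 CPM in CCT068127, against 54.4 ± 9.16 CPM in DMSO (log2 fold change -1.91, edgeR, adjusted p = 3.63e-06). ATF2 (-0.64) and ATF7 (-0.90), JUN partners that bind cAMP response elements, fell too, the second without a call on TPM values. MAFK, ATF2 and ATF7 are named because the counts are small, after their values were seen.

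Other bZIP factors mostly went down. Of 22 tested CREB, ATF, CEBP and related genes, 12 fell and 2 rose (median -0.57), with 15 or 16 lower under library totals and filtered TPM. Among all genes tested 32.8% fell and 31.9% rose. Library totals called 6567 of 13597 genes lower, and filtered log2(TPM + 1) values 7472 of 14394. ATF4, the effector of the integrated stress response, was at 287 ± 5.90 CPM in CCT068127 and 824 ± 47.7 CPM in DMSO, a log2 fold change of -1.52. CEBPB (-1.92) and XBP1 (-1.48) fell as well, and CEBPA rose by 1.69. ATF3, which ATF4 is known to activate, was higher in the CCT068127 group, while ATF4 was lower there. Whether these changes are linked was not tested.

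Genes known to act upstream went both ways by counts. Of 8 tested serum response factor, ternary complex factor and MEF2 genes, which act on immediate early promoters, 1 rose and 3 fell (median -0.06), while 7 were called lower on log2(TPM + 1) values. For comparison, 31.9% of all genes rose and 32.8% fell by counts. Filtered log2(TPM + 1) values called 7472 of all 14394 genes lower and 2474 higher, so TPM counts of lower genes partly reflect that general shift. ELK3 rose by 1.36, while MRTFB (-1.37), MEF2A (-0.71) and ELK4 (-0.74) fell. SRF itself was at 67.1 ± 11.6 CPM in CCT068127 and 65.2 ± 5.44 CPM in DMSO (edgeR, adjusted p = 0.713). Of 29 tested kinases of the MAPK cascades, some of which phosphorylate JUN and the ternary complex factors, 6 rose and 14 fell (median -0.22). On log2(TPM + 1) values with a filter 20 were called lower and 0 higher, where the same shift over all genes applies. RPS6KA2 (-1.62), MAP2K6 (-2.22) and MAP2K4, a kinase that activates JNK (-1.10), fell. RPS6KA5, which encodes MSK1, rose by 1.11 from counts but was lower on log2(TPM + 1) values (-1.32, limma, adjusted p = 0.000229). RNA levels do not report kinase activity.

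Genes known to respond to AP-1 were largely higher among those tested. The list of such genes had 30 members, of which 22 were tested. The untested ones include IVL, SPRR1A and SPRR1B, which had no counts in any library. Of the 22, 14 were called higher and 3 lower (median 0.64). MMP1, among the 14, passed the low-count filter through the treated libraries, so its call is not independent of the filter. It is named for this limit only. The shares over all genes were 31.9% higher and 32.8% lower. On filtered log2(TPM + 1) values 10 were called higher and 4 lower, with a median of 0.20. There 2474 of all 14394 genes were called higher and 7472 lower. A pseudocount of 0.1 left 9 called higher. PLAUR, the urokinase receptor, reached 247 ± 10.2 CPM in CCT068127, against 30.2 ± 0.719 CPM in DMSO (SD, n = 3; log2 fold change 3.03, edgeR, adjusted p = 1.46e-08). HMOX1, a haem-degrading enzyme also driven by NRF2, rose by 5.15 on the log2 scale. IL1A, a proinflammatory cytokine, was at 26.6 ± 2.29 CPM in CCT068127 and 57.0 ± 15.5 CPM in DMSO (log2 fold change -1.09). All of these genes are known to have other regulators too.

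**Figure D4:**
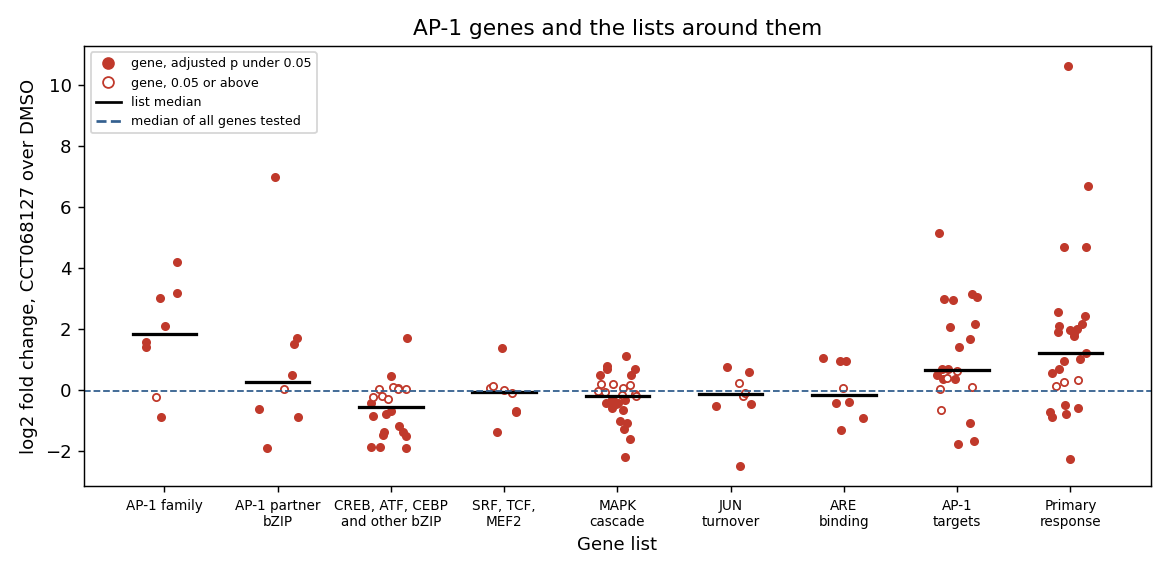
log2 fold change (CCT068127 over DMSO) of every tested gene in the AP-1 family and in the lists around it, filled where the adjusted p was under 0.05, with list medians as bars and the median of all genes as a dashed line. The AP-1, AP-1 target and primary response medians are at 1.83, 0.64 and 1.19.

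Other primary response genes, which share induction signals with FOS and JUN, rose in 18 of 27 tested cases and fell in 6 (median 1.19). By the same rule 31.9% of all genes tested rose and 32.8% fell. ARC rose to 1194 ± 253 CPM in CCT068127, against 0.80 ± 0.09 CPM in DMSO. ARC and some other genes of this list passed the low-count filter through the treated libraries alone. Their calls as higher are therefore not independent of the filter. GADD45B, a stress adaptor gene, rose by 4.67 and IER3 by 2.43, while the nuclear receptor gene NR4A2 fell by 2.28 on the log2 scale.

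Genes with the most similar profiles were sought by the Euclidean distance between the 6 centred log2 CPM values, over 11337 other genes that averaged 5 CPM or more. The nearest to FOS were ID2 (distance 0.265) and NUPR1 (0.469), and the nearest to JUNB were CD68 (0.359) and DNER (0.37). FOSL1 lay closest to CHTF18 (0.152) and SPC24 (0.166), JUN to KIN (0.122) and RELT (0.183), and ATF3 to AUNIP (0.288) and SLIT2 (0.293). FOSB lay closest to LOC101927479 (0.322) and GAS6-DT (0.614). JUND was nearest to MBD6 (0.0866) and KLHDC2 (0.0867), and FOSL2 to HDAC7 (0.0705) and RAB34 (0.0708). None of the 8 was among the nearest pair of another member. The distance is over 6 libraries that share 1 contrast, so it mostly matches the size of the change.

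**Figure D5:**
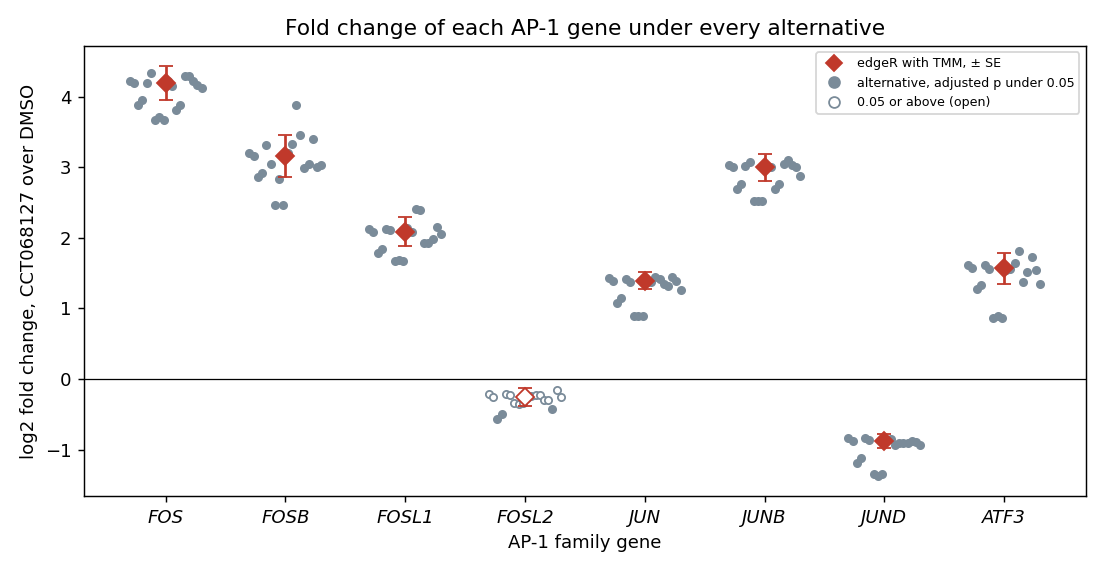
log2 fold change (CCT068127 over DMSO) of each AP-1 gene with edgeR and TMM (diamonds, ± SE) and under each of 18 alternatives (circles, open where the adjusted p was 0.05 or above). The 6 genes that rose stay above 0 and JUND below 0 throughout, and FOSL2 is called in 3 alternatives.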

How the data were processed

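Per the labels' protocols, mRNA was selected by poly(A), made into libraries with a New England Biolabs kit and read on an Illumina instrument. The deposited tables hold, for each symbol, RSEM estimated counts as whole numbers and the TPM values of the authors. The submitters' processing notes list RSEM, Bowtie and hg38 with no versions, and no source used here names the annotation. Groups and replicate numbers came from the sample titles.

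Differences were fitted to the counts by edgeR 4.0.16 under R 4.3.3. The filterByExpr function (minimum count 10, or 1.74 CPM at the median library, in 3 libraries) kept 13597 genes, and TMM scaling, a robust quasi-likelihood fit and two-sided tests followed. Standard errors were taken from the F statistic, and CPM uses TMM-scaled totals. The pipeline was tested on simulated data. Alternatives were DESeq2 1.42.0, limma 3.58.1 (voom, and trend on log2(TPM + 1) or log2(TPM + 0.1), filtered at 1 TPM in 3 libraries or unfiltered), other scalings, no filter, a replicate block, each library left out, the deep DMSO libraries thinned with 1 draw, and DMSO replicate 3 as the sole control. Fold changes on the log2(TPM + pseudocount) scale understate the change of low genes.

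The members, lists and tests were chosen with earlier results of these data known. Genes named from a list are those with the smallest adjusted p, up to 3 called the way most of the list went plus 1 called the opposite way, and each member has its 2 nearest profiles named. Some genes that this rule selects are not reported here. Within groups, no pair of libraries agreed within counting noise (chi-square per degree of freedom from 1.94 to 9.23, deep libraries thinned), so each counted as 1 replicate.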

Additional observations from a re-analysis of the deposited data

How the results depend on the processing

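Over the 8 AP-1 genes and 18 alternatives, 141 of 144 log2 fold changes kept their direction and their side of the threshold, 3 newly passed, and 0 lost a call or changed sign. The 3 were those of FOSL2: -0.56 with library totals, -0.49 without a low-count filter, and, over the fits without 1 library, -0.42 to -0.16 with a call only without CCT068127 replicate 1. The count of members called lower was accordingly 2 with library totals, 2 without a low-count filter and from 1 to 2 over the fits without 1 library, and the count called higher was 6 in all 18. Over the alternatives, log2 fold changes ranged from 3.67 to 4.33 for FOS, 2.47 to 3.88 for FOSB, 1.67 to 2.41 for FOSL1, 0.89 to 1.45 for JUN, 2.52 to 3.11 for JUNB, 0.86 to 1.82 for ATF3 and -1.37 to -0.84 for JUND.

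The replicate block left 6 members higher and 1 lower, with FOSL2 at -0.27 (adjusted p = 0.0732). Same-numbered libraries did not deviate together (r from 0.00471 to 0.00999 over 13597 genes). With so few libraries this cannot show whether cultures were paired, and the labels do not say what a shared number marks. With the block the JUNB to JUND difference stayed at 3.90, with an exact sign-flip p of 0.25, the smallest that 3 pairs allow. The difference in FOS-class share was 2.09 percentage points from CPM and 7.33 from TPM.

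Library totals moved the split of all calls to 3006 higher and 6567 lower, against 4333 and 4460 with TMM, and filtered log2(TPM + 1) values to 2474 and 7472; with DMSO replicate 3 alone 2740 were lower. On log2(TPM + 1) values RPS6KA5 reversed (-1.32 with and without a filter, and -1.7 on log2(TPM + 0.1)), and KIN turned to -0.08 with and without a filter and to -0.09 on log2(TPM + 0.1), with no call. The cause was not tested. ATF7 had no call on TPM values. Counts of calls moved by over 1.5 times in parts of the smaller lists: the serum response list had 3 lower, against 5 with library totals and 7 on TPM values; the JUN turnover list 2 higher and 3 lower, against 0 and 5 on TPM values, 1 and 5 with library totals and 1 and 1 with DMSO replicate 3 alone, and 1 higher without a low-count filter or without any 1 of DMSO replicate 3, CCT068127 replicate 2 and CCT068127 replicate 3; the MAPK list 14 lower, against 7 with DMSO replicate 3 alone; and the AP-1 target list 3 lower, against 1 with limma-voom. The CREB and CEBP list had 2 higher, against 1 with library totals and 1 on filtered log2(TPM + 1) or log2(TPM + 0.1) values. The AU-rich element list had 4 lower. Both counts were smaller with DMSO replicate 3 as the sole control. Depth limits FOSB, whose DMSO replicate 3 value rests on 20 counts, and DET1, MAFA, ARC and FLJ31356, which have libraries of under 10 counts.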

Other observations

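Genes that act on AP-1 messages and proteins after transcription were also measured. Of 8 proteins that bind the AU-rich elements typical of immediate early messages, 3 rose and 4 fell (median log2 fold change -0.18). Across all genes tested 31.9% rose and 32.8% fell. KHSRP, which promotes decay of such messages, rose to 462 ± 19.2 CPM in CCT068127, against 225 ± 13.6 CPM in DMSO (SD, n = 3; edgeR, adjusted p = 4.33e-06). ZFP36L2, a decay factor, was at 60.8 ± 5.15 CPM in CCT068127 and 117 ± 20.2 CPM in DMSO, TIA1, a translational silencer, fell by 1.33 and HNRNPD by 0.44 on the log2 scale, and HNRNPD had no call with DMSO replicate 3 as the sole control.

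Of 8 genes known for JUN turnover, 2 rose and 3 fell (median -0.15), with 1 called higher without DMSO replicate 3, without CCT068127 replicate 2 or without CCT068127 replicate 3. These counts were near the shares over all genes, 31.9% higher and 32.8% lower. DET1, a subunit of a ubiquitin ligase that targets JUN, had 9, 4 and 4 counts in CCT068127 replicates 1 to 3, against 3728, 4304 and 52 counts in DMSO replicates 1 to 3, or 1.69 ± 0.68 CPM in CCT068127 and 8.78 ± 0.92 CPM in DMSO. DET1 passed the low-count filter through the DMSO libraries, so its call among the 3 that fell is not independent of the filter. COP1 (-0.48) and CUL4A (-0.53), parts of the same ligase, fell, without a call when DMSO replicate 3 was the sole control.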
